A study of Mus musculus with 4 samples.

Results

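The 40 genes described here are transcribed in dividing cells: 25 are known for their work in G2 phase and mitosis (G2/M members) and 15 for their work at the entry into S phase and in DNA replication (S members). They come from a list of gene symbols drawn up with earlier results of these data known, and all 40 symbols were found among the 55450 genes counted. Their levels were followed across marker-gated immune, tumour and stromal cells of 4T1 tumours. 4T1 is a mouse mammary carcinoma line, and 1000000 cells of it were implanted into the right flank of each female BALB/c mouse aged 6 to 8 weeks.

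The study asked how TIOs change the cells of the tumour. TIOs are macrophage-derived carriers treated with liquid nitrogen that hold upconverting particles, a photosensitizer and RSL3, an inhibitor of the lipid peroxide-reducing enzyme GPX4. Every mouse was injected intravenously on day 7, received near-infrared light (NIR) of 980 nm for 5 min at an intensity of 1.0 W cm-2 on day 8 and again on day 9 and day 10, and gave its tumour on day 13. PBS+NIR holds 2 samples and TIOs+NIR holds 1 sample, and light was therefore common to both groups. The treatment of 1 more sample was not assigned because its title and its protocol name different injections. By the methods, cells positive for CD45 (product of Ptprc, on leucocytes) were collected by sorting before droplet-based sequencing, in which each transcript molecule carries a unique molecular identifier (UMI).

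The cells came in 4 libraries, marked by the suffix of the cell barcode, and no label ties a suffix to a sample. Treatments were therefore not compared, no test was made, and each library is given as a sample of unknown treatment. Of 33064 barcodes, 32133 held at least 300 genes and at most 15% mitochondrial UMIs and were kept (7847, 8614, 6783 and 8889 in libraries 1 to 4). Depth differed, with a median of 11698 UMIs per cell in library 1, 2642 in library 2, 2695 in library 3 and 7182 in library 4. Levels are given in CPM, the UMIs that a gene took in every 1000000 counted in a group of cells. The members took 644641 UMIs, or 0.182% of all counted in kept cells, and 24.2% of the kept cells held none of them. Among kept cells, 95 barcode sequences occurred in 2 libraries. Intervals below are exact 95% intervals (Clopper-Pearson for shares, Poisson for levels) and cover counting error only, not differences between mice or libraries.

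A cell that divides first licenses its replication origins and copies its DNA, for which it needs the MCM helicase, the sliding clamp PCNA and enzymes that supply nucleotides. It then condenses its chromosomes, builds a spindle and divides under cyclin-dependent kinase 1 and its cyclins, aurora and polo-like kinases and a checkpoint that waits for every kinetochore to be attached. Transcription of the first group is driven mainly by E2F factors. That of the second is driven by the MuvB complex with B-MYB and FOXM1, which acts through the CHR element (TTTGAA), and by NF-Y at CCAAT boxes. Neutrophils leave the cell cycle in the bone marrow, whereas activated lymphocytes, carcinoma cells and the fibroblasts of a growing tumour can divide.

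Promoters of members with many UMIs are shown because these elements are what many of the members are known to share. Only members with a searched word in the 250 bases before the start were taken, so Tyms, which had none, is missing. Ube2c, Cenpa, Pcna, Rrm2 and Mcm7 are left out because their window overlaps the gene as annotated. The 150 bases before the annotated start are written 5′ to 3′ on the gene's own strand, from RefSeq (GRCm38.p6). Capitals mark CCAAT boxes, TTTGAA elements and E2F words on either strand, where the E2F words are TTTGGCG with its variant TTTGCCG, then TTTCCCG and its relative TTTCGCG. A box on the other strand reads ATTGG and an element reads TTCAAA when written on this one, and in Mcm6 a pair of E2F words overlap. Top2a (topoisomerase II alpha, which untangles chromosomes) is read from chr11:99024190-99024339 on the minus strand, Mki67 (the Ki-67 protein that coats mitotic chromosomes) from chr7:135716380-135716529 on the minus strand, and Birc5 (survivin, of the chromosomal passenger complex) from chr11:117849087-117849236 on the plus strand. For the S members, Mcm6 is read from chr1:128359706-128359855 on the minus strand, Mcm3 from chr1:20820313-20820462 on the minus strand (both subunits of the replicative helicase) and Rrm1 (the large subunit of ribonucleotide reductase) from chr7:102441545-102441694 on the plus strand.
Top2a: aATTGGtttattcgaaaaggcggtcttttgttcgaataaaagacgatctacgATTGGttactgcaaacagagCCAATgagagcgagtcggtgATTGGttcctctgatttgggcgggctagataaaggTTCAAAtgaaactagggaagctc
Mki67: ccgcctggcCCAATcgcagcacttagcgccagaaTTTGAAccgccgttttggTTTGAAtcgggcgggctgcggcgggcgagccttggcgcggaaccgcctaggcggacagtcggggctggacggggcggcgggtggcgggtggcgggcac
Birc5: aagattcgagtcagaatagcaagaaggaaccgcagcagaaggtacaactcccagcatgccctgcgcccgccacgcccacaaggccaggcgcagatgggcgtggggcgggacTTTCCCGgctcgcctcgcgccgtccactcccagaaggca
Mcm6: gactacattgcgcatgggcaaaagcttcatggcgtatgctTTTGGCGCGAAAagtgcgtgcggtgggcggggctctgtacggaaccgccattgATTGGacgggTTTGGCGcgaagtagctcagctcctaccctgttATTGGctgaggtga
Mcm3: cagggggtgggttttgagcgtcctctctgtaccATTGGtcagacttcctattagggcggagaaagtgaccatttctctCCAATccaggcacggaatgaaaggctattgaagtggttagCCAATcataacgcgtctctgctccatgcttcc
Rrm1: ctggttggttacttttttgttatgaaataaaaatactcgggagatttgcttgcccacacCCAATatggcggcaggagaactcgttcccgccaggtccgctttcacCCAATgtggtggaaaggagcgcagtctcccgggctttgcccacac
In these windows Top2a held 4 CCAAT words and 1 TTTGAA word, Mki67 held 1 and 2, and Birc5 held an E2F word and neither of the others. A promoter entry was found for 33 of the 40 members, and the 250 bases before the start were searched. CCAAT stood in 18 of 21 G2/M members and 9 of 12 S members against 33.8% of all 32851 promoters. TTTGAA stood in 7 of 21 G2/M members and 1 of 12 S members (16% of all promoters), and each of those 7 also held CCAAT, a pair present in 5.55% of all promoters. An E2F word stood in 3 of 21 G2/M members and 4 of 12 S members (5.51% of all promoters). These are matches of letters and not measured binding.

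Cells were gated into 14 types by markers fixed with the design, which named 26283 cells and left 5850 ungated. The marker levels that follow are of the same markers that set the labels, so they describe the gates and are no independent check. Neutrophil-like cells held 107178 CPM of their 9 markers, tumour-like cells 10410 of theirs (Krt8, Krt18, Epcam and other epithelial genes) and 13.1 of the T cell markers, and fibroblast-like cells 32597 of theirs. Keratinocyte-like cells held 14550 CPM of their own markers and 14840 of the neutrophil markers, so this name is uncertain. Despite the sort, Ptprc stood at 10.2 CPM in tumour-like and 17.8 in fibroblast-like cells, against 788 in T-like and 727 in neutrophil-like cells.

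To compare cells of unequal depth, each cell was thinned at random to 1000 UMIs, which left out 1890 shallower cells, and a cell was called high in G2/M members when it kept 3 or more of their UMIs. With libraries pooled, fibroblast-like, endothelial-like and tumour-like cells and the cells of the pericyte gate were high most often, and neutrophil-like and monocyte-like cells least often. Of 3659 tumour-like cells, 11.7% were high (10.7 to 12.8). Of 3681 fibroblast-like cells, 15.0% were high (13.9 to 16.2). The share was 15.6% among 321 endothelial-like cells (11.8 to 20.01) and 24.1% among 295 cells of the pericyte gate (19.3 to 29.4). Among leucocytes, the share was 8.79% of 1047 T-like cells (7.14 to 10.7) and 5.94% of 219 NK-like cells (3.20 to 9.94), with intervals that overlap. It was 3.35% of 3732 macrophage-like cells (2.80 to 3.98). Neutrophil-like cells, which should lack mitotic transcripts and serve as the background, were high in 0.277% of 7571 (0.172 to 0.424), and monocyte-like cells in 0.227% of 3957. The upper and lower limits of these 2 overlap, whereas macrophage-like and T-like shares lie above them. Median depth before thinning was 1811 UMIs in neutrophil-like, 3905 in T-like, 6894 in macrophage-like, 19262 in tumour-like and 28431 in fibroblast-like cells. None of 41 B-like cells was high, which allows a share of up to 7.32% by a limit of 3 cells and up to 8.604% by the exact interval.

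**Figure D1:**
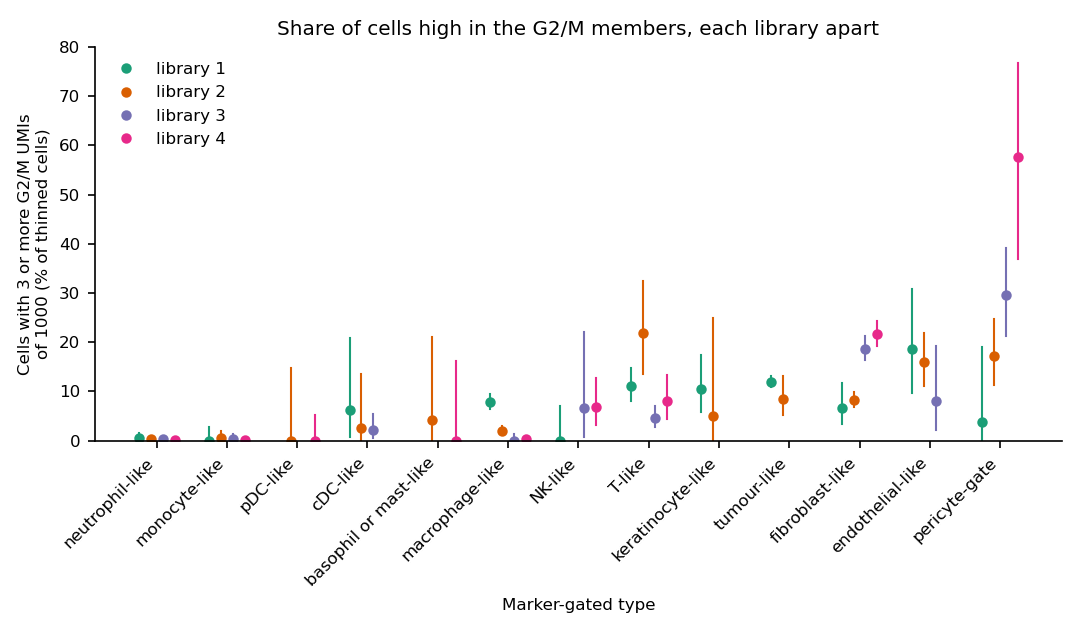
Share of cells (percent, vertical axis) with 3 or more UMIs of the 25 G2/M members after thinning to 1000 UMIs, by cell type, with 1 point per library where at least 20 thinned cells were present and bars for exact 95% intervals. Neutrophil-like and monocyte-like points stay under 1%, fibroblast-like points run from 6.67% to 21.7%, and macrophage-like points fall from 7.78% in library 1 to 0 in library 3.

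Shares differed between libraries. The share of fibroblast-like cells high in G2/M members was 6.67% in library 1, 8.27% in library 2, 18.7% in library 3 and 21.7% in library 4. Libraries 3 and 4 thus stood above libraries 1 and 2, with intervals that do not overlap (16.3 to 21.3 and 19.3 to 24.3 against 3.38 to 11.6 and 6.89 to 9.82). Macrophage-like cells ran the other way, with 7.78% in library 1, 1.94% in library 2, none of 282 in library 3 (a share of up to 1.06% by a limit of 3 cells and 1.3% by the exact interval) and 0.316% in library 4. The summed level of the G2/M members followed, at 781, 357, 200 and 174 CPM in macrophage-like cells and 931, 943, 1912 and 2004 in fibroblast-like cells. Neutrophil-like cells stayed between 142 and 239 CPM in all 4 libraries. Epithelial transcripts moved with library too: fibroblast-like cells not high in G2/M members held 281 CPM of Krt8 in library 1, 17.0 in library 2, 0.0832 in library 3 and 0 in library 4. Cd3e, 1 of the 5 T cell markers, stood at 15.4, 347, 136 and 36.5 in the same cells. In library 2 it stood at 8.30 in the tumour-like and 12.4 in the macrophage-like cells not high in G2/M members. Over all fibroblast-like cells the 5 markers together held 166 CPM, and the median marker was detected in 3.09% of cells. The other T cell markers were not followed by library, so Cd3e does not stand for them. The part of Krt8 or Cd3e transcripts in the shares was not tested. Col1a1, which encodes type I collagen, was lower in the high fibroblast-like cells than in the rest in every library, for example 2127 against 4704 CPM in library 3.

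T-like cells were high in G2/M members in 11.0% of cells in library 1, 21.9% in library 2, 4.63% in library 3 and 8.07% in library 4. Only the shares of libraries 1 and 2 have intervals clear of that of library 3 (8.03 to 14.6 and 13.6 to 32.5 against 2.85 to 7.06). Among T-like cells split by Cd8a, Cd8b1, Cd4 and Foxp3, the CD8 T-like group was high in 13.5% of 260 cells, but 241 of its 264 cells before thinning came from library 1. Foxp3-positive T-like cells, the regulatory T cell gate, were high in 13.8% of 138 cells, made up of 0 of 27 in library 1, 10 of 22 in library 2, 8 of 73 in library 3 and 1 of 16 in library 4. The library 2 share there, 45.5% (24.4 to 67.8), has an interval clear of those of libraries 1 and 3 but not of library 4 (0.158 to 30.2). Foxp3-negative CD4 T-like cells were high in 6.80% of 338. High T-like cells had a median of 10579 UMIs against 3805 in the rest, and in every type with many high cells the high cells held more UMIs (27052 against 19045 in tumour-like, 49712 against 27033 in fibroblast-like and 12718 against 7184 in macrophage-like cells).

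Tumour-like cells were nearly confined to libraries 1 and 2, with 3525 and 213 cells, none in library 3 and 2 in library 4. They were high in G2/M members in 11.9% of library 1 (10.9 to 13.1) and 8.49% of library 2 (5.11 to 13.1). Fibroblast-like cells of these libraries were high in 6.67% (3.38 to 11.6) and 8.27% (6.89 to 9.82). Within these libraries they were thus not above the tumour-like cells, unlike in the pooled order. In library 1 the T-like share (11.0%, 8.03 to 14.6) and the tumour-like share overlapped. Cells high in G2/M members, which the call selects for these UMIs, held 72.2% of all G2/M member UMIs of tumour-like cells, 81.2% in T-like, 70.0% in fibroblast-like, 45.4% in macrophage-like and 4.15% in neutrophil-like cells. In high tumour-like cells, the median number of different G2/M members detected after thinning was 4, against 2 in the 21 high neutrophil-like cells.

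The gate for pericytes and smooth muscle (Rgs5, Acta2, Notch3, Myh11, Des and Cspg4) gave the highest pooled share, yet its high cells did not carry the markers of its name evenly. In libraries 1 to 4 the share high was 3.70%, 17.2%, 29.6% and 57.7%, of 27, 134, 108 and 26 cells. The gate was thus not the highest in library 1, where endothelial-like cells stood at 18.6%, or in library 2, where T-like cells stood at 21.9%. Fibroblast markers were detected more widely in the gate than its own, in a median of 65.2% against 55.7% of all its cells and 84.5% against 53.5% of its 71 high cells, with summed levels of 2115 and 2584 CPM in the latter. Acta2 (smooth muscle actin) stood at 1121, 1245 and 126 CPM in the high cells against 4623, 5175 and 4615 in the rest of the gate. Rgs5 (a pericyte marker) stood at 1537, 245 and 82.2 against 3131, 227 and 1252, so that it was lower in the high cells in libraries 2 and 4 but not in library 3. Des (desmin, of all muscle types) was detected in all 71 high cells. Myod1, a transcription factor of skeletal muscle that was looked up after the values were seen, had a UMI in 44 of the 71 high cells and in 42 of the 224 others. Cells of the gate with Myod1 were high in 51.2% (44 of 86, 40.1 to 62.1) and those without it in 12.9% (27 of 209, 8.69 to 18.2), although those with Myod1 were also deeper, with a median of 46678 against 9604 UMIs. The group is therefore called the pericyte gate here and not pericytes.

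**Figure D2:**
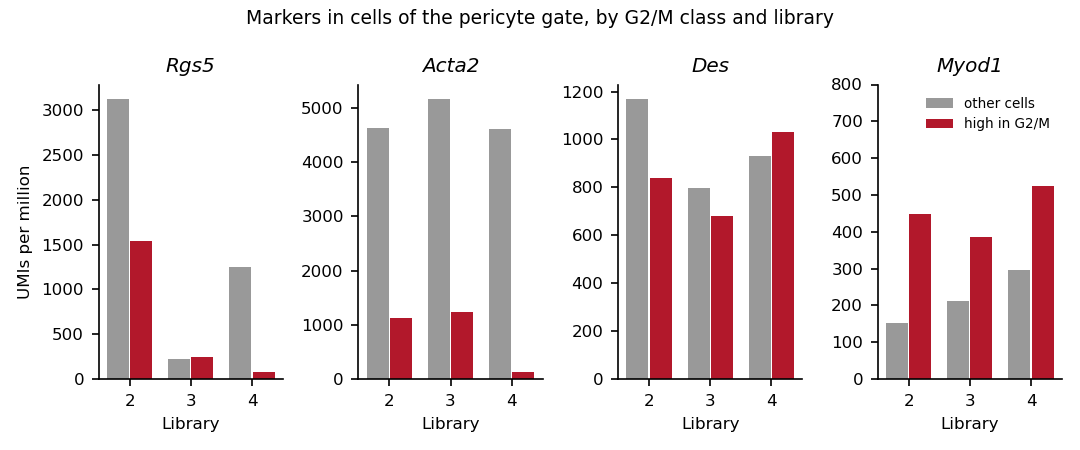
Levels of gate markers and Myod1 (CPM) in cells of the pericyte gate high in G2/M members and in the rest, by library (2 to 4; library 1 has 1 high cell). Acta2 is lower in the high cells of each library, and Myod1 is higher (448, 387 and 524 against 152, 213 and 296 CPM).

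By member, the pericyte gate had the highest pooled level for 22 of the 25 G2/M members and 9 of the 15 S members, and tumour-like cells for none of the 40. The order depended on the library, where only types with at least 50 cells in that library were ranked. Among these, T-like cells were highest for 13 of the 25 G2/M members in library 1 and 17 in library 2. The pericyte gate was highest for 24 in library 3 and fibroblast-like cells for 18 in library 4. Of all 40 members, tumour-like cells were highest for 3 in library 1. The pericyte gate (29 cells) and endothelial-like cells (24 cells) of library 4 were not ranked. Their summed G2/M levels there were 3764 and 3373 CPM, above the 2004 of fibroblast-like cells. In library 1 the pericyte gate (29 cells) was not ranked either. Without the cells with Myod1, the pericyte gate was highest for 12 of the 40 members, all of them G2/M members. With a stricter gate (a score of at least 0.2 and 2 times the next) it was highest for 2 of the 40. The share of all genes highest in each type was not computed. These counts therefore have no background and do not set the members apart from other genes.

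Among the mitotic kinases and cyclins, Cdk1, the kinase that starts mitosis, stood at 91.2 and 99.5 CPM in tumour-like cells of libraries 1 and 2, at 51.0, 87.4, 34.5 and 31.6 in T-like cells of libraries 1 to 4 and at 10.7, 4.87, 6.96 and 6.61 in neutrophil-like cells. Of the types with at least 50 cells there, tumour-like cells were its highest in library 1. Cdk1 made up 7.00% of the G2/M member UMIs of tumour-like cells against 2.64% in T-like cells. Ccnb1 and Ccnb2, its B-type cyclin partners, and Ccna2, the A-type cyclin, were highest in T-like cells in library 2. In library 4 these 3 cyclins were highest in fibroblast-like cells, by the same limit of 50 cells. Ccna2 stood at 24.8, 38.3, 80.3 and 72.7 CPM in fibroblast-like cells of libraries 1 to 4, higher in the last 2 libraries as for the summed members. Plk1, the polo-like kinase, and Bub1 and Bub1b, kinases of the spindle checkpoint, had low levels everywhere, with tops of 43.9, 35.4 and 38.9 CPM. Cdc20, which activates the anaphase-promoting complex, and Ube2c, its ubiquitin-conjugating enzyme, stood at 51.4 and 146 CPM in tumour-like cells against 4.98 and 12.8 in neutrophil-like cells.

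Members of the spindle and the kinetochore followed the same split with a few exceptions. Cenpf, a large kinetochore protein, stood at 96.4 and 80.8 CPM in tumour-like cells of libraries 1 and 2 and at 9.88, 2.25, 2.75 and 3.60 in neutrophil-like cells of libraries 1 to 4. Cenpe and Kif11 (kinesin motors of the kinetochore and the spindle), Prc1 and Kif20a (central spindle), Tpx2 and Hmmr (spindle assembly), Aurkb (aurora kinase B) and Birc5 were lowest in monocyte-like, pDC-like or neutrophil-like cells, and Tacc3, also of spindle assembly, in basophil or mast-like cells. Prc1 showed a wide spread between types, from 157 CPM in the pericyte gate to 1.32 in pDC-like cells, where it rests on 1 UMI. Nusap1, which bundles spindle microtubules, was highest in T-like cells, at 74.1 CPM (67.2 to 81.7) against 48.4 in the pericyte gate and 26.2 in tumour-like cells. It made up 4.72%, 4.70%, 2.64% and 3.73% of the G2/M member UMIs of T-like cells in libraries 1 to 4, and 2.06% and 1.34% of those of tumour-like cells in libraries 1 and 2.

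**Figure D3:**
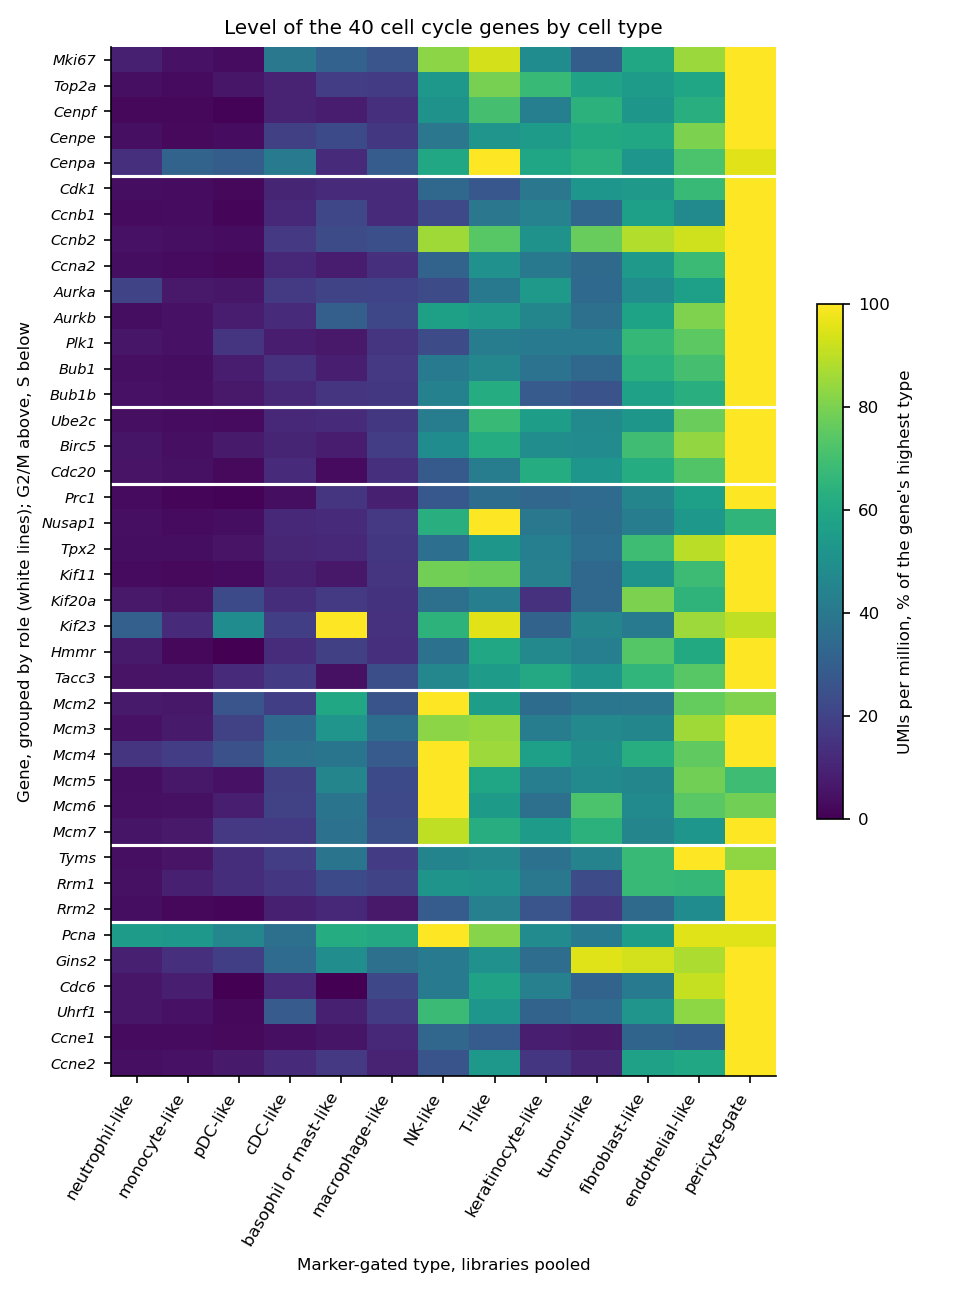
Level of each of the 40 members by cell type with libraries pooled, as CPM in percent of the member's highest type (colour from dark at 0 to yellow at 100), for types with at least 50 cells. Neutrophil-like and monocyte-like columns are dark for nearly all members, the pericyte gate is yellow for 31 of the 40, and Pcna stays between 82.1 (cDC-like) and 222 (NK-like) CPM.

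Cenpa and Kif23 did not follow the other G2/M members, and Aurka departed from them in some libraries only. Cenpa, the histone H3 variant of centromeres, stood at 110, 121, 99.9 and 51.2 CPM in monocyte-like cells of libraries 1 to 4 and took 38.8% of their G2/M member UMIs, against 9.28% in tumour-like and 10.7% in T-like cells. By library its share in monocyte-like cells was 43.3%, 58.0%, 41.4% and 36.0%, each above the 9.25% and 9.59% of tumour-like cells in libraries 1 and 2. Kif23, a kinesin of the central spindle, stood at 17.3, 21.5, 13.6 and 22.5 CPM in neutrophil-like cells, and took 10.9% of their G2/M member UMIs against 1.54% in fibroblast-like cells. Aurka, aurora kinase A, stood at 2.47, 10.7, 5.99 and 14.4 CPM in neutrophil-like cells, and at 14.8 in tumour-like cells of library 1. In library 1 it was at least 2-fold higher in tumour-like, macrophage-like, T-like and fibroblast-like cells than in neutrophil-like cells. In tumour-like cells of library 2 it was not. None of the 3 genes overlaps another gene in the annotation used (GENCODE vM21, GRCm38): Cenpa lies at chr5:30666777-30674830, Kif23 at chr9:61915905-61946774 and Aurka at chr2:172356190-172370535.

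The proportion of Mki67 to Top2a differed between types and hardly between libraries for tumour-like cells. Mki67 stood at 59.3 and 53.2 CPM in tumour-like cells of libraries 1 and 2 and Top2a at 154 and 142. In T-like cells of libraries 1 to 4, Mki67 stood at 151, 371, 127 and 214 and Top2a at 235, 417, 112 and 180. Since 3′ counts of unlike transcripts are not comparable as levels, only the share of Mki67 in the UMIs of both genes is compared here. It was 27.8% and 27.3% in tumour-like cells of libraries 1 and 2 (27.1 to 28.6 and 25.2 to 29.5). It was 35.8%, 43.3%, 43.6% and 47.2% in fibroblast-like cells and 39.1%, 47.1%, 53.2% and 54.3% in T-like cells of libraries 1 to 4. Macrophage-like cells reached 50.1%, 61.7%, 76.5% and 53.8%. All of these lie above the tumour-like shares, with intervals that do not overlap them. Among cells high in G2/M members alone the share was 29.2% in tumour-like, 44.7% in fibroblast-like, 47.9% in T-like and 49.8% in macrophage-like cells, so the difference was present there as well. Ungated cells of library 1 had 28.0%.

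**Figure D4:**
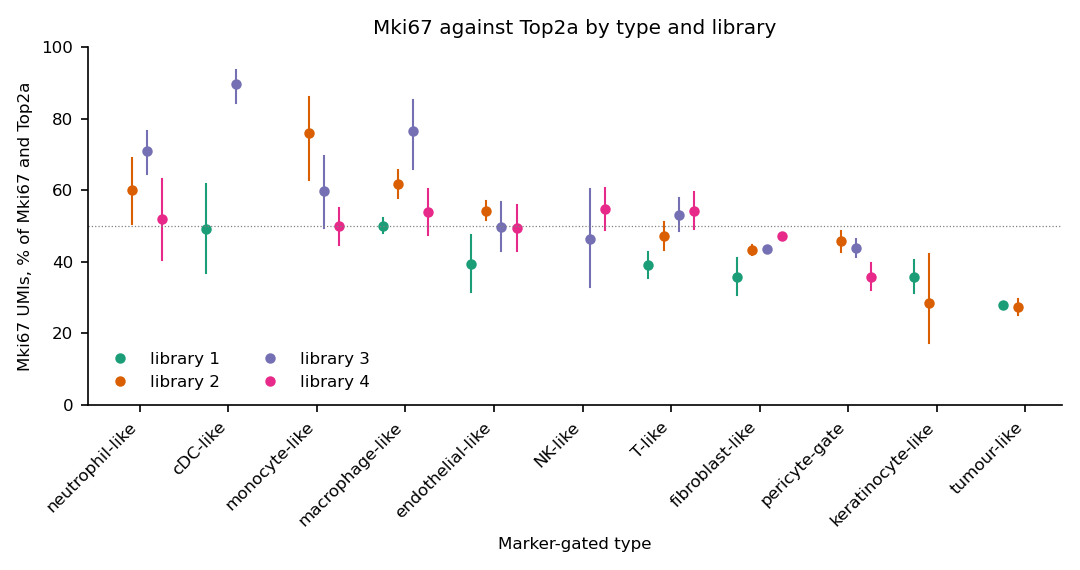
Mki67 as a share of the UMIs of Mki67 and Top2a (percent, with exact 95% intervals) by cell type, with 1 point per library where both genes together reached at least 50 UMIs. Tumour-like points lie at 27.8% and 27.3%, below those of fibroblast-like, T-like and macrophage-like cells, and the cDC-like point of library 3 lies at 89.6%.

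In some cells Mki67 was found without its companions. In cDC-like cells (conventional dendritic cells) of library 3, Mki67 made up 89.6% of the UMIs of Mki67 and Top2a (84.4 to 93.5). Of those cells, 7 held at least 5 Mki67 UMIs, and all 7 held at most 3 UMIs of the other 24 G2/M members together. The same was true of 6 of 6 such neutrophil-like cells, 5 of them in library 3. It was true of 0 of 3 and 0 of 2 such cDC-like cells in libraries 1 and 2, 3 of 6 monocyte-like and 9 of 87 macrophage-like cells. It was also true of 1 of 57 such T-like cells, 1 of 315 tumour-like cells and 1 of 749 fibroblast-like cells. The cDC-like cells concerned had a median of 11747 UMIs, against 13229 in the T-like and 36635 in the tumour-like cells with at least 5 Mki67 UMIs. The 6 neutrophil-like cells had a median of 2679 UMIs. Cells without any other G2/M member UMI held 71.5% of the Mki67 UMIs of neutrophil-like cells and 33.7% of those of cDC-like cells in library 3, against 2.80% in T-like and 0.506% in tumour-like cells. These cells were not thinned, and their median depth was 1811, 8844, 3905 and 19262 UMIs in the same order. Few UMIs per cell also leave Mki67 alone, so these shares cannot separate missing companions from shallow counts. As the call of high cells rests on the sum, the 21 high neutrophil-like cells had 54 Mki67 UMIs and 1 Top2a UMI.

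By summed level, the S members separated the types less sharply. Their summed level was 594 CPM in tumour-like, 744 in fibroblast-like, 862 in T-like, 1032 in NK-like, 385 in macrophage-like and 188 in neutrophil-like cells. Pcna alone took 1978 of the 3023 S member UMIs of neutrophil-like cells. By member, the median fold over neutrophil-like cells was 5.27 for S and 9.52 for G2/M members in tumour-like cells. It was 11.0 and 12.5 in T-like cells, and 4.08 and 3.54 in macrophage-like cells. Cells with 3 or more S member UMIs after thinning made up 4.51% of tumour-like (3.86 to 5.23), 5.60% of fibroblast-like (4.88 to 6.39), 4.11% of T-like (2.99 to 5.49), 6.85% of NK-like (3.88 to 11.1) and 1.53% of macrophage-like cells (1.16 to 1.97), against 0.383% of neutrophil-like cells (0.257 to 0.550). By library the fibroblast-like share was 0.606%, 2.80%, 8.90% and 7.00%, so libraries 3 and 4 were again above libraries 1 and 2.

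Of the helicase subunits Mcm2 to Mcm7, Mcm6 stood at 79.7 and 67.9 CPM in tumour-like cells of libraries 1 and 2, at 58.0, 91.0, 53.3 and 46.3 in T-like cells and at 10.7, 4.30, 3.72 and 4.51 in neutrophil-like cells. NK-like cells had the highest pooled level for Mcm2, Mcm4, Mcm5, Mcm6 and Pcna, with Mcm6 at 109 CPM (91.9 to 129), but for none of the 5 was this clear of the next type's interval. Their summed S level was 432 CPM in library 1 and 1210 in library 4, which gave 130 of the 221 NK-like cells. In library 4 they were highest for all 5 genes, but in library 1 only for Mcm5. Tyms, thymidylate synthase, was highest in endothelial-like cells at 132 CPM (123 to 141). Rrm1 and Rrm2, the subunits of ribonucleotide reductase, were low in tumour-like cells (27.2 and 33.0 CPM) next to fibroblast-like cells (81.3 and 72.5) and T-like cells (60.8 and 91.1). Rrm1 in tumour-like cells, at 26.1 and 36.1 in libraries 1 and 2, was below fibroblast-like cells of every library (62.6, 54.5, 104.6 and 86.9). Gins2, of the GINS complex that joins the helicase, ranked 2nd in tumour-like cells at 40.7 CPM, near the 42.7 of the pericyte gate. Ccne1 and Ccne2, the E-type cyclins of the G1 to S transition, Cdc6, the licensing factor, and Uhrf1, which copies DNA methylation, were highest in the pericyte gate, Ccne1 at 54.0 CPM against 17.8 in the next type. For Cdc6 and Uhrf1 this was not clear of the next type's interval. Without the cells with Myod1, no S member was highest in the pericyte gate, and NK-like cells were highest for 7 and endothelial-like cells for 6.

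Pcna had the smallest spread between types of the members detected in every type with at least 50 cells, 2.71-fold from cDC-like to NK-like cells. It stood at 81.5, 106, 145 and 126 CPM in neutrophil-like cells of libraries 1 to 4, at 56.7, 129, 141 and 116 in monocyte-like cells and at 89.3 and 120 in tumour-like cells of libraries 1 and 2. Tumour-like cells had 0.752 times the pooled level of neutrophil-like cells. Pcna lies at chr2:132249162-132253314 (GRCm38), overlaps no other gene there, and has pseudogenes Pcna-ps1 and Pcna-ps2. Ccnb1, Ccnb2 and Tyms also have a pseudogene by name, so the division of reads between copies is uncertain for these 4 members. Of the 40 members, 17 overlap another annotated gene, 6 on the same and 15 on the opposite strand.

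High S and high G2/M calls met in the same cell to unlike degrees. Of 43 T-like cells high in S members, 24 (55.8%) were also high in G2/M members. It was 27 of 48 (56.3%) in the pericyte gate, 14 of 29 (48.3%) in endothelial-like cells, 63 of 206 (30.6%) in fibroblast-like cells, 13 of 57 (22.8%) in macrophage-like cells and 27 of 165 (16.4%) in tumour-like cells. Of all thinned cells of these types, in the same order, 8.79%, 24.1%, 15.6%, 15.0%, 3.35% and 11.7% were high in G2/M members. For the overlap, library 1 alone, which holds most tumour-like cells, gave 12 of 18 for T-like and 27 of 158 for tumour-like cells. The count of S-high cells rests on few UMIs: at 6 UMIs in cells thinned to 2000, the S-high share fell from 4.51% to 2.24% in tumour-like and from 4.11% to 3.23% in T-like cells.

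Against neutrophil-like cells, tumour-like cells held at least 2-fold higher pooled levels of 37 of the 40 members, where 43.8% of all genes compared passed the same fold. Kif23, Aurka and Pcna were the 3 that did not pass. T-like cells did so for 38 members (52.3% of all genes), all but Aurka (1.98-fold) and Pcna, and macrophage-like cells for 34 (41.1% of all genes). The median fold of the members was 8.92 in tumour-like, 11.2 in T-like and 3.70 in macrophage-like cells, beside medians of 1.53, 2.17 and 1.52 over all genes. Deeper cells weigh more in these pooled levels. As a mean over cells, the summed G2/M level was lower in T-like (875 CPM) than in tumour-like cells (1013 CPM). For macrophage-like cells the count differed by library: 35 of 40 in library 1 (27.8% of all genes), 33 in library 2 (43.9%), 9 in library 3 (51.3%) and 7 in library 4 (33.9%). In libraries 3 and 4 the members thus passed less often than all genes did, and in library 4 none of the 25 G2/M members passed. The summed G2/M level of T-like over neutrophil-like cells was 8.14-fold, 23.6-fold, 6.80-fold and 7.97-fold in libraries 1 to 4, and that of tumour-like cells 5.57-fold and 8.42-fold in libraries 1 and 2.

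Cells high in G2/M members were then compared with the rest of their type on genes that the call did not use. All 17 other mitotic genes compared, among them Cdca8 of the passenger complex, Ndc80 of the kinetochore and Pttg1 (securin), were at least 2-fold higher in the high tumour-like cells, where 3.75% of all genes were higher and 2.73% lower. The same held for 17 of 17 in fibroblast-like cells (2.76% of all genes higher, 6.93% lower), 15 of 15 in T-like cells (6.01% higher, 11.3% lower) and 17 of 17 in macrophage-like cells (6.01% higher, 7.28% lower). With libraries pooled, the S members divided the types. In high T-like cells 12 of 15 were at least 2-fold higher and in high macrophage-like cells 11 of 15, but only 5 of 15 in tumour-like cells (Rrm1, Rrm2, Tyms, Ccne1 and Ccne2) and 4 of 15 in fibroblast-like cells (Rrm1, Rrm2, Tyms and Gins2). No Mcm gene passed in tumour-like or fibroblast-like cells, whereas Mcm5 was 3.13-fold higher in T-like and 3.34-fold higher in macrophage-like cells, against 1.64-fold and 1.68-fold. Within libraries, the summed S level of high cells over the rest was 3.12-fold, 1.92-fold, 3.54-fold and 3.63-fold in T-like cells of libraries 1 to 4, 1.58-fold and 1.53-fold in tumour-like cells of libraries 1 and 2 and 2.40-fold, 2.86-fold, 1.44-fold and 1.48-fold in fibroblast-like cells. In macrophage-like cells it was 1.91-fold and 4.97-fold in libraries 1 and 2. Library 1 held 98 of the 125 high macrophage-like cells but 1162 of the 3607 others. The summed S level of those others was 439 CPM in library 1 and 277, 294 and 309 in libraries 2 to 4. The pooled macrophage-like counts and folds therefore mix library with the call. Libraries 3 and 4 held 185 and 239 of the 553 high fibroblast-like cells, but 804 and 861 of the 3128 others. The summed S level of these others was 319, 355, 883 and 719 CPM in libraries 1 to 4. Pooled fibroblast-like counts and folds therefore mix library with the call as well. By the folds within libraries, fibroblast-like cells of libraries 1 and 2 lay within the range of T-like cells, and those of libraries 3 and 4 below it.

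Other regulators moved in part, again with libraries pooled. The share of all genes at least 2-fold higher was 3.75%, 2.76%, 6.01% and 6.01% in high tumour-like, fibroblast-like, T-like and macrophage-like cells. Of the replication genes that are not members, 9 of 18 were at least 2-fold higher in high tumour-like, 10 of 18 in fibroblast-like, 14 of 17 in T-like and 14 of 18 in macrophage-like cells. Of the E2F and pocket proteins, 3 of 13, 3 of 13, 3 of 9 and 4 of 12 passed, and E2f7 and E2f8, the repressor members of the family, were 2.98-fold and 2.78-fold higher in high tumour-like cells. With libraries pooled, Foxm1, the activator of mitotic genes, was 8.62-fold higher in tumour-like, 4.67-fold in fibroblast-like and 12.1-fold in macrophage-like cells. Of the CDK inhibitors, Cdkn3, a phosphatase that acts on CDK1 and CDK2, was 10.3-fold and Cdkn2d (p19) 6.13-fold higher in high tumour-like cells, whereas Cdkn1a (p21) stood at 1.17-fold and Cdkn2c (p18) at 0.784-fold. None of the G1 cyclins and kinases passed in tumour-like, fibroblast-like or macrophage-like cells, while Cdk2 and Cdk4 passed in T-like cells and Ccnd2 was 0.398-fold there. Of the anti-proliferative and quiescence genes none was 2-fold higher in any of the 4 types. At least 2-fold lower were 0 of 10, 2 of 10, 3 of 8 and 2 of 10, beside 2.73%, 6.93%, 11.3% and 7.28% of all genes. In T-like cells those were Btg1 (0.366-fold), Tob1 (0.372-fold) and Klf2 (0.488-fold).

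**Figure D5:**
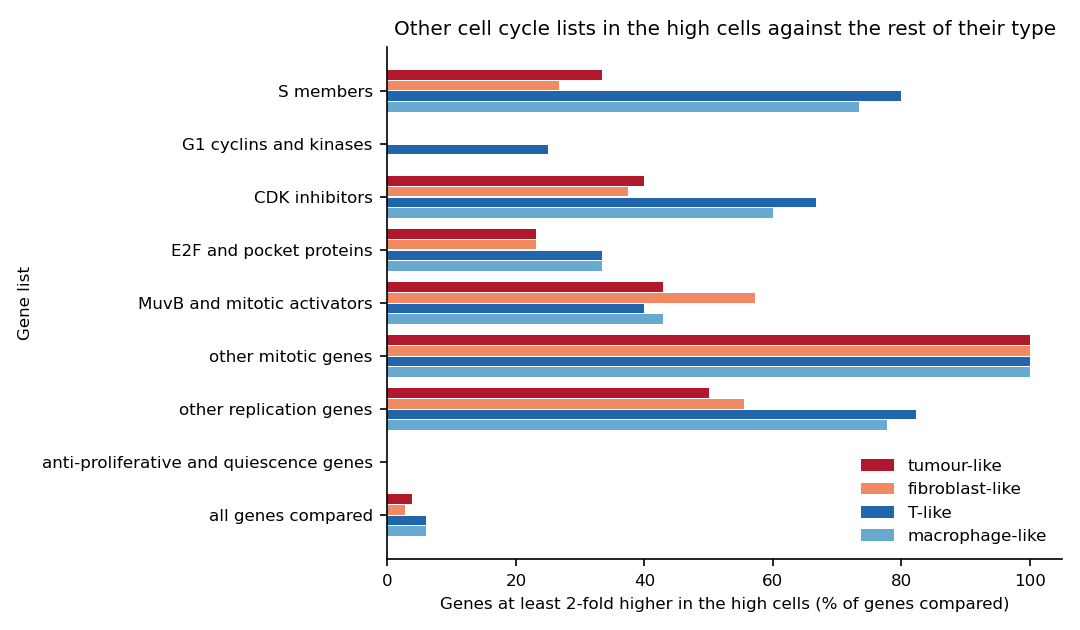
Share of each fixed gene list (percent of its compared genes) at least 2-fold higher in cells high in G2/M members than in the rest of the same type, for tumour-like, fibroblast-like, T-like and macrophage-like cells. Other mitotic genes reach 100% in all 4 types, S members reach 80% in T-like and 33.3% in tumour-like cells, and anti-proliferative genes stay at 0. Of all genes compared, 2.76% to 6.01% pass, with libraries pooled.

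Genes that act before S phase or restrain it had their own order of types. Ccnd1, cyclin D1, stood at 1095 CPM in tumour-like, 563 in endothelial-like and 17.99 in neutrophil-like cells, and Cdk4, its kinase partner, at 372 in tumour-like and 30.9 in neutrophil-like cells. Ccnd2, cyclin D2, was instead highest in NK-like (379) and T-like cells (339), with 33.0 in tumour-like cells. Among inhibitors, Cdkn1a reached its top level of 1028 CPM in neutrophil-like cells and stood at 58.3 in tumour-like cells, whereas Cdkn2c was highest in tumour-like cells at 146 against 4.23. Cdkn2b (p15) stood at 89.95 in cDC-like cells and at 0.0989 in tumour-like cells, and Cdkn2a at 35.5 in the pericyte gate and 29.5 in cDC-like cells. Btg1, which restrains growth, stood at 3209 CPM in neutrophil-like and 280 in fibroblast-like cells, and Rbl2 (p130, a pocket protein of resting cells) at 113 in T-like and 9.38 in tumour-like cells. Cks2, a CDK subunit and a mitotic gene, was high in basophil or mast-like cells (598) and stood at 266 in neutrophil-like cells, above the 91.8 of tumour-like cells, so it too departed from the G2/M members.

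Across 32 groups of 1 type in 1 library, the genes whose level was most like the summed G2/M level, among 6221 genes with a mean of at least 20 CPM, were Pclaf (a PCNA-binding protein, Pearson r 0.965), Cdca8 (0.961), Knstrn (0.960), Cdca3 (0.959) and Smc4 (a condensin subunit, 0.957). For the S members they were Smc2 (another condensin subunit, 0.957), Cbx3 (0.947), Tipin (0.946), Lig1 (the replicative DNA ligase, 0.943) and Smc4 (0.941). The groups share libraries and differ in depth, so these values are descriptions.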

How the data were processed

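Single-cell RNA was sequenced from 4 samples of CD45-sorted tumour cells. The deposited values are UMI counts of 55450 genes in 33064 barcodes, made by the authors with Cell Ranger and pooled in 1 matrix. Its version is 2.1.1 in the submitters' processing notes, 3.0.2 in the protocol and 6.1.2 in the matrix header. The build is mm10 per the notes, and no source used here gives the annotation. Every member and list was chosen with earlier results of these data known.

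Barcodes were dropped below 300 genes (414 of them) or where mitochondrial UMIs passed 15% (812). A cell took a type when its mean scaled marker score was at least 0.15 and 1.5 times the next, a rule set after seeing the data. Levels are summed UMIs per 1000000 (CPM). Cells were thinned to 1000 UMIs with seed 1. Genes with at least 50 UMIs were compared (over all kept cells between types, over both groups between high cells and the rest), and a gene passes at 2-fold. Doublets were scored in each library but kept, and 1606 cells with the top 5% of scores were removed as an alternative. The text names every member and the genes most like the summed members. Of each related list, up to 4 genes with the largest and smallest folds or levels between types were planned. More than 4 CDK inhibitors are named, so this limit was not kept for them. Genes outside these lists are given as chosen afterwards. Positions are from GENCODE vM21 and promoters from RefSeq (GRCm38.p6). Scripts were tested on simulated data and run with Python 3.11.15, numpy 2.4.6, scipy 1.17.1, pandas 2.3.3 and matplotlib 3.10.9.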

Additional observations from a re-analysis of the deposited data

Results flagged for a closer look

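Member transcripts were also present in the 931 barcodes that the filters removed and that no comparison uses. They held 1098 member UMIs of 1022990, or 1073.3 CPM (1010.8 to 1138.7). They are given because the removed barcodes stand outside the comparisons, where a count of 0 would have allowed up to 2.93 CPM. By library the level was 1494.5, 885.4, 936.6 and 939.1 CPM in libraries 1 to 4, against 1817.2 in the kept cells of all libraries. The removed barcodes were not gated into types.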

How the results depend on the processing

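No paired analysis was possible because no label ties a library to a sample and no test was made. Of the shares, summed levels and counts recomputed under other settings, 98 kept within the main value's counting interval or 1.5 times the main count and 75 did not; raising the filters to 500 genes or 10% mitochondrial UMIs moved none of them. For tumour-like, fibroblast-like, T-like and macrophage-like cells and the pericyte gate in this order, the share high in G2/M members was 16.1%, 20.9%, 13.9%, 6.14% and 29.5% at 2 UMIs and 7.16%, 8.15%, 5.63%, 1.55% and 13.6% at 5 UMIs. With 0.3% of unthinned UMIs as the limit it was 13.1% in fibroblast-like and 7.11% in T-like cells. In the pericyte gate it was 11.4% with the stricter gate and 12.9% without Myod1 cells, the latter set chosen after seeing the data. Leaving out 1 library at a time gave 8.45% to 11.9%, 12.2% to 19.3%, 7.56% to 11.7%, 1.09% to 4.38% and 20.8% to 29.8%, and without library 1 the macrophage-like share was the 1.09%. For S members, tumour-like, fibroblast-like, T-like and macrophage-like shares were 10.7%, 12.5%, 10.4% and 5.57% at 2 UMIs, 0.574%, 0.924%, 0.669% and 0.107% at 5 UMIs, and 0.829%, 0.661%, 1.75% and 0.585% without thinning. At 2000 UMIs they were 2.24%, 3.32% and 0.767% in tumour-like, fibroblast-like and macrophage-like cells. Without 1 library they ranged from 3.29% to 4.58%, 4.38% to 7.37%, 3.70% to 5.04% and 0.930% to 1.76%. The summed G2/M level as a mean over cells was 1013, 1064, 875, 396 and 1641 CPM, in the first order. T-like cells thus fell below tumour-like and fibroblast-like cells, whereas pooled they stood above them (1796 against 1315 and 1617). The pooled level was 1674 in fibroblast-like cells and 2712 in the pericyte gate with doublets removed, and 1979 in the pericyte gate without Myod1 cells. Without 1 library it ranged from 1191 to 1330, 1393 to 1927, 1522 to 2169, 256 to 601 and 2480 to 3105, and the macrophage-like 256 is without library 1. Tumour-like cells were highest for 1 member with the mean over cells or the stricter gate and for 0 to 1 without 1 library. The pericyte gate was highest for 2 members with the stricter gate, 12 without Myod1 cells and 24 to 35 without 1 library. Macrophage-like cells passed for 18 of the 40 members at 4-fold (20% of all genes) and for 20 to 37 without 1 library. The 20 were without library 1, where 42.3% of all genes passed, and the 37 without library 4, where 41.2% did. Of 160 levels of single members (in 4 types), 153 left their counting interval as a mean over cells, 23 with doublets removed and 85, 93, 63 and 75 without libraries 1 to 4. The cause of these shifts was not tested.

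Shares rest on few UMIs per cell, so the order of types with close intervals, such as T-like and NK-like cells, cannot be set. Libraries cannot be tied to treatments, and sort purity, depth and treatment cannot be told apart between them.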

Other observations

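Ungated cells, which carried no clear marker profile, were high in G2/M members in 5.16% of 5092 thinned cells and held 1154 CPM of them. Of 1650 cells high in G2/M members in all, 83 (5.03%) were among the cells with the top doublet scores, which made up 5.00% of kept cells.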
